A study of Mus musculus with 16 samples.

Results

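The comparison described here set HSCs sorted as MAC-1+ 4 weeks after transplantation against HSCs sorted as MAC-1- from unperturbed marrow, and asked how far the regenerating cells resembled classical resting HSCs. Its members were the 3 samples labelled 4 week MAC-1+ and the 3 labelled steady state (SS) MAC-1-, 6 of the 16 samples sequenced, and they were compared across all genes of the table of counts. The other samples, of SS MAC-1low and of MAC-1- and MAC-1low HSCs at 4 weeks, entered the same statistical model and are given as reference levels. All samples carried the labels B6.SJL and WT, and no age was given. In the serial transplantations of the paper B6SJL was the strain of the donors. The irradiated recipients there were C57Bl/6 mice that also received whole marrow of their own strain, and donor HSCs were sorted by a surface marker. The SS mice were labelled untreated, and the 4 week mice had received 8000 LSK cells, that is lineage-negative cells with cKit and Sca1 on their surface, after 900 cGy of irradiation. In every sample HSCs were sorted as LSK cells without CD48 and with CD150, and their RNA was copied with SMART-Seq v4 and made into libraries with Nextera XT. The 4 week cells thus came from irradiated recipients in which donor cells rebuilt the blood, while the SS cells came from intact marrow, so that MAC-1, transplantation and time cannot be told apart in this pair of groups. The labels do not say that replicates were separate mice, and p-values then measure only the spread between these samples.

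HSCs are the rare marrow cells that can rebuild all blood lineages for life, and in unperturbed adult marrow most of them rest outside the cell cycle and use little mitochondrial respiration. After transplantation they divide to refill the marrow before they return to rest. MAC-1 is the integrin of the chains CD11b and CD18, encoded by Itgam and Itgb2, through which neutrophils and monocytes adhere to vessel walls, and its absence is part of many definitions of an HSC. A share of HSCs also transcribes megakaryocyte genes, such as those of platelet granules and receptors, and these cells are known to favour the platelet lineage.

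The 6 samples held 13781278 to 23277130 counts each, and between 14658 and 17576 genes had a count in SS MAC-1- and between 15259 and 16675 in 4 week MAC-1+. Values are given below as counts scaled to a common library size (CPM, computed by edgeR) after TMM scaling, in the order of the replicates 1, 2 and 3 of each group, and 3 counts in a library, the most that a count of 0 allows, came to 0.119 to 0.220 CPM. These floors and all counting intervals cover counting error only. Itgam, the gene of the sorted integrin chain, had 0, 0.262 and 0.103 CPM in SS MAC-1- and 8.31, 30 and 3.80 CPM in 4 week MAC-1+, so that every MAC-1+ sample lay above every MAC-1- sample, and its log2 fold change of 6.76 ± 2.48 did not pass (edgeR adjusted p = 0.242). Itgb2 had 10.4, 0 and 7.28 CPM in SS MAC-1- and 8.55, 15.2 and 15.9 CPM in 4 week MAC-1+, and the groups overlapped. Of the genes behind the HSC gate, Kit had 402, 327 and 361 CPM in SS MAC-1- and 267, 426 and 234 CPM in 4 week MAC-1+. Slamf1, which encodes CD150, was between 10.4 and 53.7 CPM in SS MAC-1- and between 0.126 and 129 CPM in 4 week MAC-1+. Cd48, absent from the surface of the sorted cells, was between 0 and 25.5 and between 0 and 45.4 CPM.

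One library stood apart. Markers of neutrophils summed to 221 to 277 CPM in SS MAC-1- and to 286, 1189.8 and 7878 CPM in 4 week MAC-1+ replicates 1, 2 and 3. Of 20 neutrophil markers 11 could be tested, and 3 were higher at an adjusted p under 0.1 (Ngp, S100a8 and S100a9), beside 0.776% of all genes. Without 4 week MAC-1+ replicate 3 the number was 1. The sort had removed cells with Gr-1 on the surface. For the markers of monocytes and macrophages (6 of 22 tested), the summed CPM ran from 740.0 to 854 in SS MAC-1- and from 829 to 1129.6 in 4 week MAC-1+. For NK and T cells (6 of 21 tested) it ran from 242 to 381 and from 68.7 to 192 CPM, and for B cells (4 of 16) from 57.6 to 112 and from 16.8 to 119 CPM. It was higher in every 4 week MAC-1+ sample for erythroblasts (8 of 14; 28.3 to 75.7 against 92.6 to 224 CPM) and dendritic cells (9 of 14; 388 to 663 against 790.1 to 1296 CPM), and lower in every one for NK and T cells, mast cells and basophils (2 of 15) and endothelial and stromal cells (6 of 16). Sums follow the abundant members. The median log2 fold change of the members tested was 1.02 for endothelial and stromal cells, opposite in sign to their sum, and -1.17 for mast cells and basophils. For NK and T cells it was 2.70, the middle of 3 positive and 3 negative members. With genes at 0 throughout a group set to the bound that 3 counts per library allow, that median was 0.30. Among these 7 lists edgeR called 1 erythroblast marker, Hbb-bt, and 2 dendritic cell markers, Flt3 and Cd74, all higher and all described below. The part of other cells in the results was not tested, and in bulk RNA fewer cells of a type and less RNA per cell cannot be told apart.

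Most genes were not called different between regenerating MAC-1+ and resting MAC-1- HSCs, and the genes that were called had different characters on the 2 sides. Higher in 4 week MAC-1+ were, among others, Plac8 of early progenitors, Cd53 of the leukocyte surface and Ly6a, the gene of Sca1 in the HSC gate. Pf4 and other megakaryocyte genes and a wide set of genes for mitochondrial respiration were lower. Of 13661 genes tested with edgeR's quasi-likelihood test, 100 (0.732%) were higher and 132 (0.966%) lower at an adjusted p under 0.1 and a log2 fold change past 1. On the adjusted p alone, the rule used for members of gene lists below, 106 (0.776%) were higher and 217 (1.59%) lower. The levels of the 3 samples of each group did not overlap for 1142 genes that were higher (8.36%) and 1178 that were lower (8.62%). The median log2 fold change of all genes was 0.02. Calls of both directions were most frequent among genes of high level, with 51 of the higher and 107 of the lower calls in the top 1 of 4 equal groups of genes by CPM.

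A missing call was in most cases a wide interval rather than a close match. The 95% confidence interval of the log2 fold change lay within 1 of 0, so that a 2-fold difference was outside it, for 778 genes (5.70%), and for 612 of the 2021 genes (30.3%) with a mean of 100 CPM or more. The median interval reached 2.54 to each side. The mean Pearson correlation of log2 CPM across 13661 genes between samples of the groups was 0.709, and that among the 3 SS MAC-1- samples themselves was 0.708, with ranges of 0.695 to 0.721 and 0.701 to 0.722. Among the 1997 genes at a mean of 100 CPM or more over all 16 samples, where counting noise is smaller, the mean correlation between the groups was 0.689 (0.667 to 0.717), below the 0.809 (0.783 to 0.846) among the SS MAC-1- samples and the 0.795 among the 4 week MAC-1+ samples. Over the same genes SS MAC-1- samples had a mean correlation of 0.817 with SS MAC-1low, 0.788 with MAC-1- and 0.772 with MAC-1low samples of 4 weeks. These correlations run across genes, which share libraries and are not independent, and are given without a test.

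**Figure D1:**
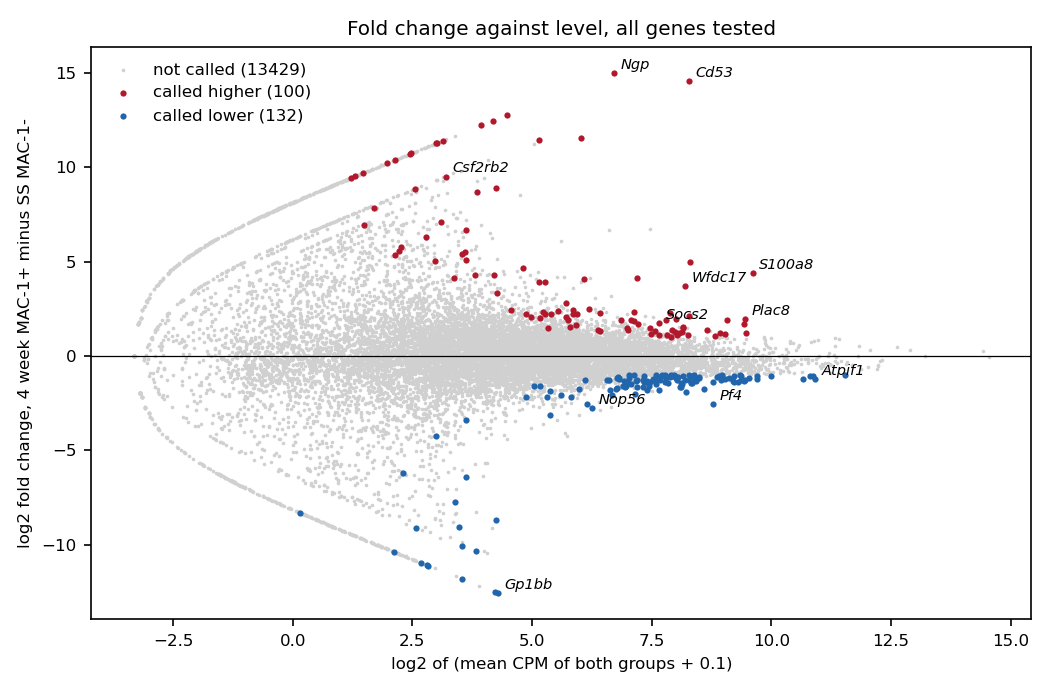
Log2 fold change of 4 week MAC-1+ over SS MAC-1- HSCs (vertical axis) against the log2 of the mean CPM of both groups (horizontal axis), 1 point per gene for the 13661 genes tested. The 100 genes called higher (red) reach fold changes that depend on the prior count where SS MAC-1- was at or near 0, such as Cd53 and Ngp, whereas the 132 called lower (blue) lie mostly at high levels and close to the threshold.

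Among genes that mark HSCs, a few had intervals that bounded the difference, a few were higher, and 1 transcription factor was lower. Lmo2, Meis1 and Kit, which encode transcription factors and the stem cell factor receptor of HSCs, had intervals within a 2-fold difference. That of Lmo2 lay wholly above 0. Ly6a and Socs2 were called higher in 4 week MAC-1+. Of 12 HSC signature genes that the study names for these populations, and which it chose on these samples, 2 were higher, beside 0.776% of all genes. The median log2 fold change was 0.23, and the other 10 did not pass. Ly6a, the gene of SCA-1, had 413, 365 and 197 CPM in SS MAC-1- and 1413, 1076 and 690.4 CPM in 4 week MAC-1+. All 3 MAC-1+ samples lay above all 3 MAC-1- samples, and the log2 fold change was 1.71 ± 0.33 (SE, edgeR adjusted p = 0.0241), although both groups had been sorted for SCA-1 on the surface. Socs2, an inhibitor of cytokine receptor signalling, had 65, 117 and 93.8 CPM in SS MAC-1- and 405, 227 and 305 CPM in 4 week MAC-1+, without overlap. Its log2 fold change was 1.76 ± 0.41 (adjusted p = 0.0595), and the call was lost without SS MAC-1- replicate 1 or 3 or 4 week MAC-1+ replicate 1 or 3, with adjusted p up to 0.17.

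The remaining signature genes had values of either sign. Hlf, a transcription factor of long-term HSCs, had 293, 225 and 470.5 CPM in SS MAC-1- and 909, 499 and 594 CPM in 4 week MAC-1+. Its groups did not overlap, but the log2 fold change of 1.02 ± 0.41 did not pass (adjusted p = 0.291). Mllt3, a chromatin reader that maintains HSCs, also had no overlap, with 247, 280.2 and 320.4 CPM in SS MAC-1- and 627, 469 and 493 CPM in 4 week MAC-1+ and an adjusted p of 0.135. Nupr1, a stress-regulated chromatin protein, and Uba7, the enzyme that activates ISG15, had log2 fold changes of 0.37 ± 0.27 and -0.63 ± 0.21 with adjusted p of 0.603 and 0.191. Kit differed by -0.23 ± 0.26 on the log2 scale, with a 95% interval from -0.79 to 0.33. Procr, the endothelial protein C receptor used to sort long-term HSCs, was spread too widely to be placed, with 32.6, 52.5 and 159 CPM in SS MAC-1- and 80.4, 63.3 and 107 CPM in 4 week MAC-1+ and an interval from -1.23 to 1.30. Fgd5 and Glipr1l1, both enriched in HSCs, had log2 fold changes of 0.07 ± 0.87 and 0.10 ± 0.65.

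Among 31 HSC transcription factors tested, of 32 listed, 22 had a positive log2 fold change, with a median of 0.35. edgeR called 0 higher and 1 lower, a gene not reported here, beside 0.776% and 1.59% of all genes. DESeq2 called 3 higher and 1 lower, and limma-voom 0. With 1 sample left out, 0 to 1 were lower. Lmo2 had 807, 852 and 899 CPM in SS MAC-1- and 1251, 1024 and 1153 CPM in 4 week MAC-1+, without overlap but only 0.42 ± 0.18 apart on the log2 scale, with an interval from 0.03 to 0.81. Meis1, a homeodomain factor of HSC self-renewal, had 216, 268 and 332 CPM in SS MAC-1- and 208, 251 and 275 CPM in 4 week MAC-1+, and its interval ran from -0.74 to 0.43. Mecom, the gene of EVI1, was at 162, 174 and 180.4 and 475, 181 and 315 CPM, so that every MAC-1+ sample was above the highest MAC-1- sample, replicate 2 only just, and it did not pass (adjusted p = 0.172).

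On the surface list, 2 of 23 genes tested, of 25 listed, were higher (Ly6a and Flt3), beside 0.776% of all genes, and the median was 0.70. Flt3, the receptor that marks multipotent and lymphoid-primed progenitors rather than HSCs, had 1.17, 0.105 and 0.103 CPM in SS MAC-1- and 2.28, 19.7 and 23.4 CPM in 4 week MAC-1+. The call (log2 fold change 5.04 ± 1.35, adjusted p = 0.0882) rested on few counts in SS MAC-1- (16, 2 and 2). It was lost in 4 of the 6 fits that left out 1 sample. Flt3 averaged 8.48 CPM in SS MAC-1low, 2.92 in 4 week MAC-1- and 16.6 in 4 week MAC-1low, beside 15.1 in 4 week MAC-1+. Ptprc, the gene of CD45, had 471, 379.8 and 612 CPM in SS MAC-1- and 1043, 719 and 1016 CPM in 4 week MAC-1+ and did not pass (adjusted p = 0.141). Adgrg1, an adhesion receptor of human and mouse HSCs, also had no overlap, at 188, 199.8 and 282 and 406, 335 and 353 CPM, and an adjusted p of 0.181. For comparison, the 12 signature genes had a median of -1.17 in 4 week MAC-1- and of 0.33 in 4 week MAC-1+ relative to SS MAC-1-, on a log2 CPM scale with a prior count of 2. Among the genes named here, Hlf was 3.32 (adjusted p = 0.00171) and Mecom 2.19 (adjusted p = 0.00187) on the log2 scale above 4 week MAC-1-, in a comparison in which 444 genes (3.25%) had an adjusted p under 0.1.

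**Figure D2:**
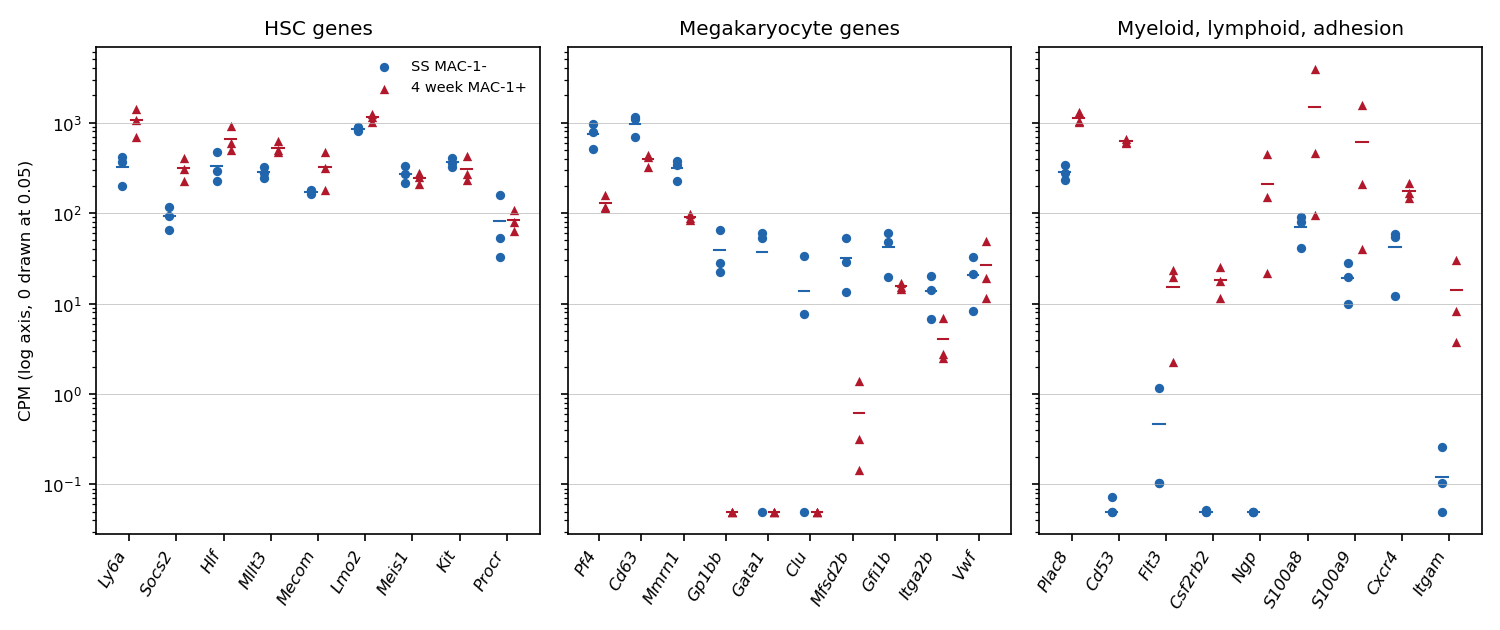
CPM of each sample on a log axis, with 0 drawn at 0.05, for HSC genes, megakaryocyte genes and myeloid, lymphoid and adhesion genes in SS MAC-1- (blue circles) and 4 week MAC-1+ (red triangles) HSCs, with bars at the means of 3 samples. Ly6a and Socs2 lie higher and Pf4, Cd63, Mmrn1 and Gp1bb lie lower in all MAC-1+ samples, and Cd53 is at or near 0 in SS MAC-1- samples.

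Several megakaryocyte and platelet genes were lower in the regenerating MAC-1+ cells. Of 37 such genes tested, of 39 listed, 6 fell (Pf4, Cd63, Mmrn1, Gp1bb, Gata1 and Clu), beside 1.59% of all genes. The other 31 did not pass, and the median log2 fold change was -1.31, beside 0.02 for all genes. The groups did not overlap for 10 members that were lower and 1 that was higher, beside 8.62% and 8.36% of all genes. The summed CPM of the list was 4864 to 5379.9 in SS MAC-1- and 2979 to 3341 in 4 week MAC-1+. Pf4, the chemokine stored in platelet granules, had 791, 511 and 964 CPM in SS MAC-1- and 117, 113 and 159.8 CPM in 4 week MAC-1+. Its MAC-1+ levels were tight and far below every MAC-1- sample; the log2 fold change was -2.54 ± 0.38 (adjusted p = 0.0056). The same gene averaged 4957 CPM in 4 week MAC-1- HSCs, 545 in 4 week MAC-1low and 378 in SS MAC-1low, so that the level in 4 week MAC-1+ was the lowest of the 5 populations. The difference from SS MAC-1low was -1.54 on the log2 scale (adjusted p = 0.0904), in a comparison in which 194 genes (1.42%) had an adjusted p under 0.1.

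Gp1bb, a subunit of the platelet receptor for von Willebrand factor, had 28.3, 22.4 and 65.3 CPM in SS MAC-1- and 0 in every 4 week MAC-1+ sample. It was at least 258-fold lower, taking 3 counts in each library as the floor (adjusted p = 0.0177). Mmrn1, a protein of platelet granules, had 378, 341 and 227 CPM in SS MAC-1- and 87.7, 83 and 98.3 CPM in 4 week MAC-1+, again without overlap (log2 fold change -1.81 ± 0.34, adjusted p = 0.0201). Cd63, a tetraspanin of granule and lysosome membranes, fell by 1.31 on the log2 scale, from 1087, 1149 and 693 to 327, 414 and 436 CPM (adjusted p = 0.00934). Gata1, the transcription factor of erythroid and megakaryocyte cells, had 59.6, 52.8 and 0 CPM in SS MAC-1- and 0 in every 4 week MAC-1+ sample, and Clu, the secreted chaperone clusterin, had 0, 33.4 and 7.74 CPM in SS MAC-1- and 0 in every 4 week MAC-1+ sample. Both were at 0 in all MAC-1+ samples and in 1 MAC-1- sample, their groups touched at 0, and both calls (adjusted p = 0.0659 and 0.0771) were lost in 5 of 6 fits with 1 sample left out. The calls of Pf4, Cd63, Mmrn1 and Gp1bb were kept in all 6.

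Other members varied. Mfsd2b, a lipid transporter of red cells and platelets, was at 52.8, 13.4 and 29 CPM and at 0.142, 1.38 and 0.316 CPM, without overlap, and just missed the threshold (adjusted p = 0.107). Gfi1b, a repressor needed for platelet formation, and Itga2b, the gene of CD41, had log2 fold changes of -1.44 ± 0.75 and -1.73 ± 0.66 with adjusted p of 0.41 and 0.257. Vwf, the marker of platelet-biased HSCs, had 21.2, 8.33 and 33 CPM in SS MAC-1- and 48.7, 19 and 11.6 CPM in 4 week MAC-1+, and its interval from -0.94 to 1.63 covered 0. Angpt1, a ligand made by HSCs and megakaryocytes, and Fli1, an ETS factor, had log2 fold changes of 0.22 ± 0.18 and 0.42 ± 0.35. Relative to SS MAC-1-, the median of the list was 1.71 in 4 week MAC-1-, -0.07 in 4 week MAC-1low, -0.29 in SS MAC-1low and -1.29 in 4 week MAC-1+ (log2 CPM, prior count 2).

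The erythroid list, which shares Gata1 with the megakaryocyte list, had 21 of 34 genes tested, a median of -0.27 and 2 calls of opposite direction. Hbb-bt, an adult beta globin gene, had 19.1, 12.9 and 28 CPM in SS MAC-1- and 95.6, 90.1 and 69.6 CPM in 4 week MAC-1+, higher in every MAC-1+ sample (log2 fold change 2.09 ± 0.46, adjusted p = 0.0407), and its call was lost in 4 of the 6 fits with 1 sample left out. Beta globin genes are near-identical copies, so the division of reads between them is uncertain. Klf1, the erythroid factor, was at most 1.94 CPM in any of the 6 samples.

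The sequence before the start of Pf4 is shown because that gene had the largest log2 fold change of the megakaryocyte genes that passed and were above 0 in every sample, and that of Cd53 because it went from near 0 to the levels given below. Both are the 250 bases upstream of the RefSeq start in GRCm38.p6, on the strand of the gene, and were searched on both strands for AGATAA, known for GATA factors, CCGGAAG, known for ETS factors, TGCGCA, the core of the site of NRF1, and TATAAA, the box near many start sites. No motif is part of another, and neither window holds any of them.
Pf4, chr5:90772185-90772434, plus strand: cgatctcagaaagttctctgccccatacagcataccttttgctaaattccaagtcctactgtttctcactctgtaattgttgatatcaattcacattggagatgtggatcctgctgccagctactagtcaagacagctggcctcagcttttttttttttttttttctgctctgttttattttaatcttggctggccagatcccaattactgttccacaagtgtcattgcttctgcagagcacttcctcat
Cd53, chr3:106790150-106790399, minus strand: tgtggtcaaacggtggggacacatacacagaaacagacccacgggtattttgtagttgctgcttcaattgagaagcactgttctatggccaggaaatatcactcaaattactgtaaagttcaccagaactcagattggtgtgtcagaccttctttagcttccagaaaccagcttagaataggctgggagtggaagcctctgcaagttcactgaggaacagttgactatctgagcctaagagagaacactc

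Of 13656 symbols tested 9299 had a promoter in the RefSeq table. The shares of motifs were counted in longer windows than those printed, which also reach past the start. AGATAA was in 6.29% of these windows and in 6 of 26 windows of megakaryocyte genes (23.1%), and CCGGAAG was in 19.1% of all windows and in 0 of these 26. Such letters are a description of the windows and say nothing of binding.

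Genes for mitochondrial respiration gave the most lower calls of any list. Of 82 nuclear genes of the oxidative phosphorylation complexes, 32 fell (39.0%), beside 1.59% of all genes, the median log2 fold change was -0.66, and 73 of 82 had a negative value. The groups did not overlap for 50 of the 82, all of them lower in 4 week MAC-1+, beside 8.62% of all genes. The summed CPM of the list was 45184 to 48254 in SS MAC-1- and 28758 to 33996 in 4 week MAC-1+. The change was modest for each gene, and 11 of the 32 were also past a log2 fold change of 1. The number was 21 to 23 when 1 sample was left out, and 12 when the trend of the fold change with transcript length and GC content was removed by an offset, with a median of -0.35.

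The lower genes belonged to most complexes. In complex I, which takes electrons from NADH, 16 of 37 genes tested fell, with a median of -0.82. Of these, Ndufa12 had 1018, 935 and 1022 CPM in SS MAC-1- and 323, 443 and 467 CPM in 4 week MAC-1+ (log2 fold change -1.27 ± 0.18, adjusted p = 0.00552), and Ndufa11 fell by 1.38 (adjusted p = 0.00775). In complex III, which passes electrons to cytochrome c, 4 of 12 fell, among them Uqcrq, from 596, 560.2 and 558 to 277, 348 and 275 CPM, and Uqcc2, an assembly factor of this complex, from 410.0, 373 and 458 to 173, 183 and 164 CPM. In complex IV, cytochrome c oxidase, 6 of 11 fell. Cox8a, one of its small subunits, had 1088, 1104 and 1149 CPM in SS MAC-1- and 570.1, 532 and 523 CPM in 4 week MAC-1+, with little spread in either group, and the second smallest p of all genes (log2 fold change -1.04 ± 0.12, adjusted p = 0.00259). Cox6a1, another subunit, fell by 0.91 (adjusted p = 0.0111). Of the ATP synthase 5 of 17 genes fell, with a median of -0.51, and the gene of cytochrome c, Cycs, fell as well. The 4 genes of complex II ranged from -0.96 to 0.31 with a median of -0.22.

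Atpif1, the inhibitor that keeps the ATP synthase from running backwards, had the smallest p of all genes. It had 2929, 2630.3 and 2617 CPM in SS MAC-1- and 1127, 1130.4 and 1203 CPM in 4 week MAC-1+, so that the groups lay far apart, and differed by -1.24 ± 0.14 on the log2 scale (adjusted p = 0.00259). The level in 4 week MAC-1+ was also below that of 4 week MAC-1- HSCs, which averaged 2972 CPM (log2 difference -1.37, adjusted p = 0.000161). Across populations the median of the respiration list relative to SS MAC-1- was -0.16 in SS MAC-1low, 0.21 in 4 week MAC-1-, -0.39 in 4 week MAC-1low and -0.66 in 4 week MAC-1+ (log2 CPM, prior count 2).

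Genes of the mitochondrial ribosome, a list added after the values had been seen, had lower values too. Of 76 tested, 14 were lower at an adjusted p under 0.1, beside 1.59% of all genes. They were 8 of 47 for the large and 6 of 29 for the small subunit, and the median of the 76 was -0.81. With the offset for transcript length and GC content 9 passed, and with 1 sample left out 9 to 13. Mrpl14 had 259.7, 279 and 244 CPM in SS MAC-1- and 94.1, 95.7 and 72.6 CPM in 4 week MAC-1+, and Mrps14 had 1081, 1216 and 1207 CPM in SS MAC-1- and 567, 501 and 446 CPM in 4 week MAC-1+, neither with overlap (adjusted p = 0.00552 and 0.00552). Genes encoded by the mitochondrial genome itself had values of either sign. The 12 tested, of 13, had a median of 0.28, edgeR called 0 of them, 1 was higher at an unadjusted p under 0.05, and DESeq2 and limma-voom called 0. They took 58356 to 70071 CPM in SS MAC-1- and 55615 to 92092 CPM in 4 week MAC-1+.

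**Figure D3:**
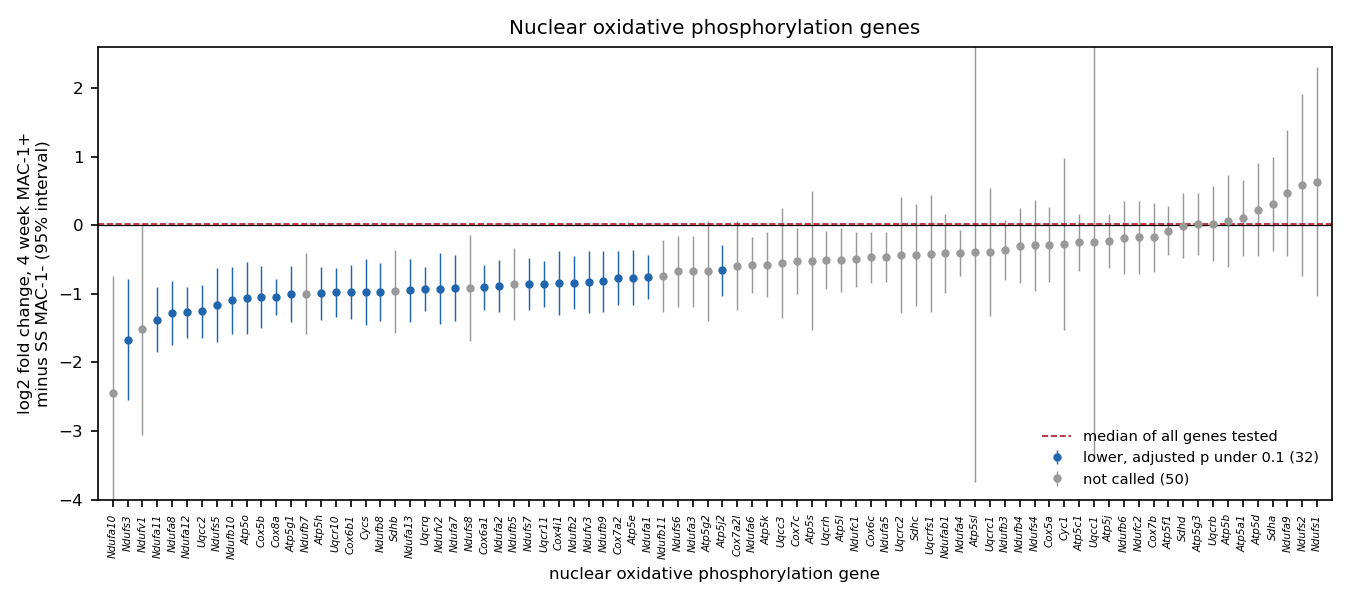
Log2 fold change of 4 week MAC-1+ over SS MAC-1- HSCs with its 95% interval for the 82 nuclear oxidative phosphorylation genes, in order of the fold change, with the median of all genes as a dashed line. The 32 genes that passed (blue) lie between -1.67 and -0.66, and 73 of the 82 are below 0.

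Short transcripts were lower in general, and the respiration genes had a median transcript length of 1186 bases. By the length of the longest annotated transcript, the median log2 fold change was -0.34 under 500 bases, -0.47 from 500 to 1000, -0.21 from 1000 to 2000, 0.11 from 2000 to 4000 and 0.24 above 4000 bases. Genes called lower had a median length of 1590 bases and genes called higher of 3339, beside 3057 for all genes tested. Within transcripts under 1000 bases and a mean of 100 CPM or more, 20 of 35 respiration genes fell (57.1%) with a median of -0.82, and 7 of 14 mitochondrial ribosomal genes (50%) with -0.89. Among cytosolic ribosomal protein genes of the same length and level 4 of 33 fell (12.1%, median -0.29), and among the other 178 genes 40 (22.5%, median -0.56). The part of transcript length in these results was not tested beyond the offset.

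**Figure D4:**
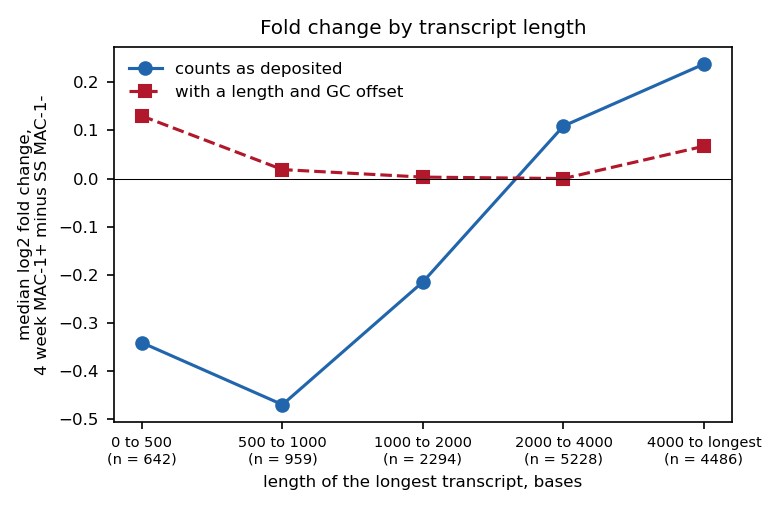
Median log2 fold change of 4 week MAC-1+ over SS MAC-1- HSCs in bins of the length of the longest transcript, for counts as deposited (solid) and with an offset for length and GC content (dashed). As deposited, medians run from -0.47 for 500 to 1000 bases to 0.24 above 4000 bases, and with the offset they stay between 0 and 0.13.

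In the longer windows used for shares, TGCGCA was in 18 of 67 of respiration genes (26.9%) and in 15% of all. It was in 7 of 28 (25%) for the respiration genes that fell, close to the share of the whole list. The window before Uqcc2 is shown for this motif. It is taken and searched as above, and capitals mark both matches of TGCGCA.
Uqcc2, chr17:27133892-27134141, minus strand: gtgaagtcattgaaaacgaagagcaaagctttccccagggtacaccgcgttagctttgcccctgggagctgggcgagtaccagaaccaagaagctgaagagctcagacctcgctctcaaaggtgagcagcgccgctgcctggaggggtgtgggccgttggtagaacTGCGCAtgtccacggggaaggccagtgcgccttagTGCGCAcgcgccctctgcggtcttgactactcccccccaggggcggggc

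Genes higher in 4 week MAC-1+ included some of early progenitors, and some of the leukocyte surface that were at or near 0 in resting MAC-1- HSCs. Plac8, a small cysteine-rich protein of multipotent and myeloid progenitors that lies on chromosome 5 from 100553725 to 100572245 of GRCm38, had 276, 232 and 342 CPM in SS MAC-1- and 1009, 1304 and 1039 CPM in 4 week MAC-1+. Every MAC-1+ sample was far above every MAC-1- sample. Its log2 fold change was 1.98 ± 0.25 (adjusted p = 0.00387), the smallest p of the higher genes. It was 839.7 CPM on average in 4 week MAC-1- HSCs, which 4 week MAC-1+ did not differ from beyond the threshold (0.41 on the log2 scale, adjusted p = 0.491). Cd53, a tetraspanin of leukocytes on chromosome 3 from 106759921 to 106790149, had 0.0734, 0 and 0 CPM in SS MAC-1- and 667, 589 and 617 CPM in 4 week MAC-1+. A single count stood in the 3 SS MAC-1- samples together and 39023 in the 3 MAC-1+ samples, a ratio with a 95% counting interval from 5873 upward (adjusted p = 0.00457). Cd53 averaged 13 CPM in SS MAC-1low, 33.3 in 4 week MAC-1- and 331 in 4 week MAC-1low, and 4 week MAC-1+ was above 4 week MAC-1- (by 4.23 on the log2 scale, adjusted p = 0.078).

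The 31 adhesion and homing genes tested, of 40 listed, had a median of 0.82, and Itgal rose and Cd47 fell among them. Itgal, the partner of CD18 in LFA-1, had 0, 0.0524 and 0 CPM in SS MAC-1- and 19.1, 1.38 and 14 CPM in 4 week MAC-1+, and the low counts left a call (adjusted p = 0.0833) that was lost in 5 of 6 fits with 1 sample left out. Cd47, which protects cells from being engulfed, had 551, 541 and 941 CPM in SS MAC-1- and 352, 352 and 289.9 CPM in 4 week MAC-1+ (log2 fold change -1.03 ± 0.22, adjusted p = 0.039) and lost its call without SS MAC-1- replicate 3 or 4 week MAC-1+ replicate 3. Cxcr4, the receptor for CXCL12 that holds HSCs in the marrow, had 12.1, 55 and 58.9 CPM in SS MAC-1- and 167, 145 and 216 CPM in 4 week MAC-1+. The groups did not overlap, and the difference did not pass (log2 fold change 2.07 ± 0.60, adjusted p = 0.125). Alcam, Cd44, Itga4, Itgb1 and Itga6, further adhesion molecules, had log2 fold changes between -0.40 ± 0.46 and 1.26 ± 1.10 and adjusted p of 0.814 at most and 0.336 at least.

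Of 26 myeloid genes tested, of 37 listed, 4 were higher (Ngp, Csf2rb2, S100a9 and S100a8), beside 0.776% of all genes. The other 22 did not pass and the median was 1.35, and 2 were higher without 4 week MAC-1+ replicate 3. Ngp, a neutrophil granule protein, had 0 counts in every SS MAC-1- sample and 21.6, 150.4 and 456 CPM in 4 week MAC-1+, at least 1183-fold higher (adjusted p = 0.0259, and 0.0745 without replicate 3). S100a8 and S100a9, the calprotectin subunits of neutrophils and monocytes, were called as well. S100a8 had 91.1, 41.5 and 80.5 CPM in SS MAC-1- and 94.3, 465 and 3911 CPM in 4 week MAC-1+. S100a9 had 19.7, 28.2 and 9.95 CPM in SS MAC-1- and 40.3, 207 and 1584 CPM in 4 week MAC-1+. Their spread within MAC-1+ was wide, replicate 3 was far above the other samples, and without it the adjusted p were 0.403 and 0.177. Csf2rb2, a beta chain of the IL-3 receptor, had 0, 0.0524 and 0 CPM in SS MAC-1- and 25.3, 17.6 and 11.6 CPM in 4 week MAC-1+, and its ratio over the single count of SS MAC-1- had an interval from 166 upward (adjusted p = 0.0246). It is a near copy of Csf2rb, so the division of reads is uncertain. Lyz2, the lysozyme of myeloid cells, Prtn3, a neutrophil protease, and Fcer1g, a chain of Fc receptors, had log2 fold changes of -0.53 ± 0.19, 0.56 ± 0.38 and -1.05 ± 0.46, with adjusted p of 0.221, 0.564 and 0.33. Spi1 and Gfi1, factors of the myeloid lineage, had 0.69 ± 0.58 and 4.44 ± 1.89 on the same scale and did not pass.

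Of 21 lymphoid genes tested, of 37 listed, Flt3 alone passed, the median was 0.62, and 16 were positive. Ms4a6b and Ikzf2, a membrane protein and a zinc finger factor of lymphocytes, had no overlap and did not pass (adjusted p = 0.16 and 0.317). Ms4a6b had 159.7, 100.5 and 135 CPM in SS MAC-1- and 331, 254 and 297 CPM in 4 week MAC-1+. Ikzf2 had 173, 85.4 and 164 CPM in SS MAC-1- and 255, 251 and 198 CPM in 4 week MAC-1+. Bcl11a, Mef2c and Tcf4, factors of lymphoid development, lay between -0.40 ± 0.36 and 0.62 ± 0.33 on the log2 scale. All 8 Gimap genes, GTPases of lymphocyte survival that lie in 1 cluster, had a positive log2 fold change with a median of 1.16. edgeR called 0 of them, 4 had an unadjusted p under 0.05, and DESeq2 and limma-voom called 4 and 2.

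Interferon-stimulated genes were mostly higher in value, and few passed. All 53 were tested, 3 rose (Iigp1, Parp9 and Ly6a) and 2 fell (Ifitm2 and Ifitm1), beside 0.776% and 1.59% of all genes. A positive value was found for 42, the median was 1.06, and 17 were higher without overlap, beside 8.36% of all genes. Iigp1, an interferon-induced GTPase, had 64.5, 101 and 75.6 CPM in SS MAC-1- and 339.7, 323 and 521 CPM in 4 week MAC-1+, every MAC-1+ sample above every MAC-1- sample (log2 fold change 2.30 ± 0.51, adjusted p = 0.0461). Parp9, an ADP-ribosylation factor of interferon signalling, had 18.9, 41.9 and 4.41 CPM in SS MAC-1- and 158, 84.5 and 129 CPM in 4 week MAC-1+ (adjusted p = 0.0808). Ifitm2 and Ifitm1, membrane proteins that block virus entry, moved the other way, Ifitm2 from 1760.3, 2107 and 1682 to 1014, 925 and 1003 CPM and Ifitm1 from 4110.4, 5162 and 4665 to 3438, 2975 and 2328 CPM (adjusted p = 0.0116 and 0.0808). Of these 5 only Ifitm2 and Ly6a kept the call in all 6 fits that left out 1 sample. Ifitm1 had a mean of 793 CPM in 4 week MAC-1-.

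Of 24 genes of MHC and antigen presentation tested, of 27 listed, Cd74 rose and the median was 0.54. Cd74, the invariant chain of MHC class II, had 146, 109 and 96.8 CPM in SS MAC-1- and 538, 566 and 399 CPM in 4 week MAC-1+, without overlap (log2 fold change 2.10 ± 0.56, adjusted p = 0.0882), and its call was lost whichever sample was left out. Of 39 cytokine receptor and JAK-STAT genes tested, of 41 listed, Jak1, Pim1 and Socs2 rose, beside 0.776% of all genes, and the median was 0.66. Jak1, a kinase of interferon and cytokine receptors, had 217, 305 and 346 CPM in SS MAC-1- and 739, 607 and 486 CPM in 4 week MAC-1+, and Pim1, a kinase induced by STAT5, had 4.47, 9.49 and 7.74 CPM in SS MAC-1- and 17.3, 62.4 and 39.2 CPM in 4 week MAC-1+ (adjusted p = 0.0595 and 0.0834). Both had no overlap, and both calls were lost in at least 4 of the 6 fits with 1 sample left out. Smad1, a transducer of BMP signals, was the gene called among 36 of the TGF-beta, BMP, Notch and Wnt pathways, of 43 listed (median 0.32), at 22.2, 14.3 and 2.36 and 76.8, 128 and 68.2 CPM (adjusted p = 0.091). H2afy, the gene of the histone variant macroH2A1, was the gene called among 41 chromatin and DNA methylation regulators (median 0.25), at 168, 158 and 256 and 329, 542 and 370.3 CPM (adjusted p = 0.0818). Their calls were lost in 5 and 4 of those fits.

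Few genes of cell division passed between regenerating MAC-1+ and resting MAC-1- HSCs. All 43 S phase genes were tested, with a median of 0.04. edgeR called 0 of them, 1 was higher and 4 were lower at an unadjusted p under 0.05, DESeq2 called 1 higher and 4 lower, and limma-voom called 0. Pcna, the clamp of DNA polymerase, had 437, 493 and 359 CPM in SS MAC-1- and 533, 334 and 396 CPM in 4 week MAC-1+, and the values interleaved. Tipin and Dut, of the replication fork and of nucleotide supply, had log2 fold changes of -0.49 ± 0.26 and -0.97 ± 0.31. Of 43 genes of G2 and mitosis, 31 had a positive value and the median was 0.46. At an unadjusted p under 0.05, 6 were higher and 0 lower, and 6 were higher without overlap, beside 8.36% of all genes. Their summed CPM was 1987 to 2351 in SS MAC-1- and 2790 to 3626 in 4 week MAC-1+. DESeq2 called 6 higher and 0 lower, limma-voom called 1 higher, and with edgeR 1 passed. That gene was Ska1, of the kinetochore, with 0, 0 and 0.205 CPM in SS MAC-1- and 27.8, 59.4 and 26.7 CPM in 4 week MAC-1+ (adjusted p = 0.00552). Mki67, the proliferation marker, had 98.1, 112 and 135 CPM in SS MAC-1- and 268, 134 and 102 CPM in 4 week MAC-1+, and Top2a, the topoisomerase of mitotic chromosomes, had 109, 87.5 and 99.2 CPM in SS MAC-1- and 149.8, 158 and 152 CPM in 4 week MAC-1+. Neither passed (edgeR adjusted p = 0.626 and 0.365), although the groups did not overlap for Top2a. Mki67 averaged 247 CPM in 4 week MAC-1- HSCs.

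Of 36 regulators of cell cycle entry and quiescence tested, of 38 listed, Socs2 passed and the median was 0.11. Cdk6, the kinase whose level sets how fast HSCs leave rest, had 103, 135 and 162 CPM in SS MAC-1- and 61.4, 93.8 and 44.5 CPM in 4 week MAC-1+, without overlap and without passing (log2 fold change -1.0 ± 0.32, adjusted p = 0.172). It was lower than in 4 week MAC-1- HSCs (log2 difference -2.01, adjusted p = 0.00563). Ccnd2 and Cdk4, of the G1 cyclin kinase, had log2 fold changes of -0.57 ± 0.20 and -0.40 ± 0.28. Egr1 and Txnip, both linked to HSC quiescence, had 0.37 ± 0.29 and 0.49 ± 0.33.

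Genes of the MYC network and ribosome biogenesis had a median log2 fold change of -0.60. Of 51 tested, of 52 listed, 3 passed, all lower, beside 1.59% of all genes. Nhp2, of the box H/ACA particles that modify ribosomal RNA, had 456, 525 and 449.8 CPM in SS MAC-1- and 211, 111 and 208 CPM in 4 week MAC-1+ (log2 fold change -1.43 ± 0.28, adjusted p = 0.0248). Nop56, of the box C/D particles, had 137, 141 and 122 CPM in SS MAC-1- and 25.2, 3.58 and 29.6 CPM in 4 week MAC-1+, and Srm, the spermidine synthase and a MYC target, had 82.6, 77 and 132 CPM in SS MAC-1- and 30.5, 9.17 and 46.4 CPM in 4 week MAC-1+ (adjusted p = 0.0595 and 0.0833). None of the 3 overlapped, and Nhp2 was the one whose call held in all 6 fits with 1 sample left out. Of 84 cytosolic ribosomal protein genes tested, of 88 listed, 8 fell, beside 1.59% of all genes. The number was 2 to 9 with 1 sample left out, and 2 without 4 week MAC-1+ replicate 3. An interval within 1 of 0 was found for 73 of the 84. The median was -0.28. Rps15 had 987, 989 and 1052 CPM in SS MAC-1- and 483, 677 and 578 CPM in 4 week MAC-1+ (log2 fold change -0.80 ± 0.16, adjusted p = 0.0282), while Rpl14, Rps27l and Rpl23a fell by 0.66, 0.83 and 0.89. With the offset for length and GC content 2 passed and the median turned to 0.06. These genes have many processed copies in the genome, so the division of their reads is uncertain.

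Of 36 glutathione and antioxidant genes tested, of 37 listed, 3 fell, beside 1.59% of all genes, and the median was -0.32. Gpx4, which repairs lipid peroxides, had 486, 585 and 485 CPM in SS MAC-1- and 265, 275 and 258 CPM in 4 week MAC-1+, and Prdx1, a peroxiredoxin, had 3246, 2767 and 3328 CPM in SS MAC-1- and 2162, 1514 and 1399 CPM in 4 week MAC-1+ (adjusted p = 0.0201 and 0.0232). Gpx1 fell by 0.49 (adjusted p = 0.0981), a call lost in 5 of the fits with 1 sample left out. Among 47 genes of lysosomes and autophagy Cd63 was the gene called (median 0.33). Of 23 genes known as higher in aged HSCs tested, of 25 listed, Clu was the gene called, and the median was 0.00. Sult1a1 and Aldh1a1, enzymes that rise in aged HSCs, ranged from 6.89 to 364 and from 0.769 to 155 CPM within SS MAC-1- alone.

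edgeR called 0 members of 5 further lists. Glycolysis and hypoxia genes (33 tested) had a median of 0.02, with 3 higher and 3 lower at an unadjusted p under 0.05, and DESeq2 called 3 higher and 2 lower and limma-voom 0. Immediate-early genes (31 of 33) had a median of 0.13, with 3 and 1 at that p, and DESeq2 called 2 and 1 and limma-voom 1 higher. p53 target genes (27 of 30) had a median of 0.05, with 3 higher at that p, and DESeq2 called 3 higher and 1 lower and limma-voom 0. Imprinted genes (16 of 28) had a median of -0.30, with 3 lower at that p, and DESeq2 called 3 lower and limma-voom 0. Sex-linked genes (4 of 5) had a median of 0.80, and 0 reached that p or were called by the other tools. With genes that were at 0 throughout a group set to their bound, the median of NK and T cell markers moved from 2.70 to 0.30 and that of erythroblast markers from 2.21 to 1.84.

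**Figure D5:**
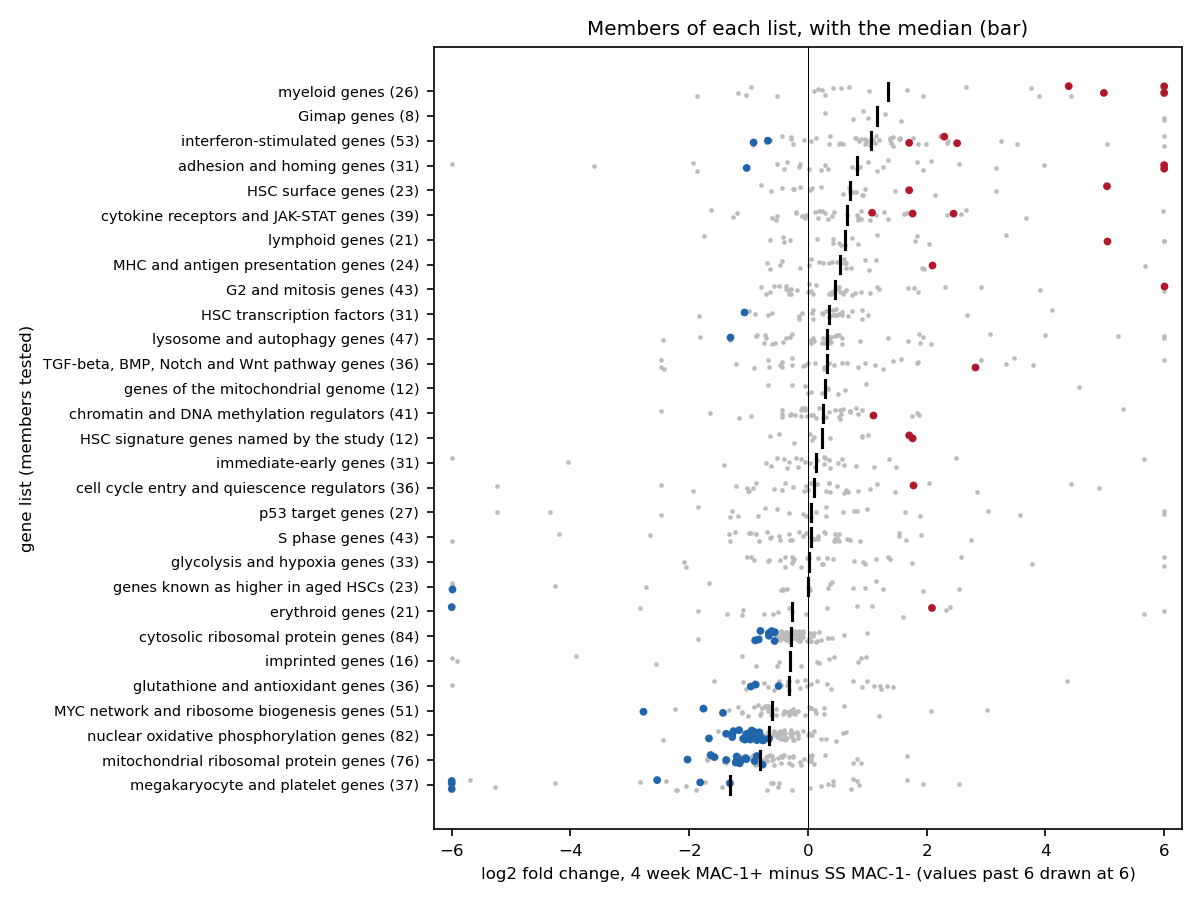
Log2 fold change of 4 week MAC-1+ over SS MAC-1- HSCs for each tested member of 29 gene lists (points, values past 6 drawn at 6) with the median of the list (bar), in order of the median. Red points were higher and blue points lower at an adjusted p under 0.1. Blue points are most numerous in the lists of respiration (32), mitochondrial ribosomes (14), cytosolic ribosomal proteins (8) and megakaryocytes (6). The median is 0.04 for S phase genes and 0.46 for genes of G2 and mitosis.

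The other genes with the smallest p came from no list. Wfdc17, a secreted protein of myeloid cells, had 27.9, 33.2 and 62.3 CPM in SS MAC-1- and 496, 555 and 586 CPM in 4 week MAC-1+, and it was higher than in 4 week MAC-1- HSCs as well (log2 fold changes 3.73 ± 0.60 and 5.56, adjusted p = 0.00775 and 0.000576). Its neighbour Wfdc18 had 0 counts in every SS MAC-1- sample and 36.1, 56.8 and 40.7 CPM in 4 week MAC-1+, at least 252-fold higher (adjusted p = 0.0461). Pqlc3, a membrane protein, had 40.6, 70.5 and 55.8 CPM in SS MAC-1- and 225, 222 and 186 CPM in 4 week MAC-1+, and Khdrbs1, the RNA-binding protein SAM68, had 42.9, 54.8 and 50.4 CPM in SS MAC-1- and 195, 200.4 and 152 CPM in 4 week MAC-1+. Neither overlapped (log2 fold changes 1.92 ± 0.34 and 1.89 ± 0.33, adjusted p = 0.0123 and 0.0132). Kat2b, a histone acetyltransferase, had 10.6, 7.02 and 5.28 CPM in SS MAC-1- and 114, 156 and 115 CPM in 4 week MAC-1+ and averaged 90.1 CPM in 4 week MAC-1- HSCs. Dzip1 and C2cd3, both of the primary cilium, rose from at most 0 and 3.49 CPM to at least 28.2 and 46.6 CPM (adjusted p = 0.00891 and 0.0233). Ccdc9 and Zfp867 were higher as well (adjusted p = 0.0233 and 0.054). The calls of Wfdc18 and Zfp867 were lost without any 1 of the SS MAC-1- samples.

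Among the lower genes, Ost4, a small subunit of the enzyme that adds sugars to new proteins, had 761, 851 and 685 CPM in SS MAC-1- and 335, 336 and 339 CPM in 4 week MAC-1+, the MAC-1+ samples within 4 CPM of each other. Banf1, which bridges DNA and the nuclear envelope, Emp3, a membrane protein, and S100a1, a calcium-binding protein, fell by 1.27, 1.30 and 1.37 (adjusted p = 0.00552, 0.00552 and 0.00552). Dynll1, a dynein light chain, had 478, 426 and 894 CPM in SS MAC-1- and 173, 137 and 221 CPM in 4 week MAC-1+ (log2 fold change -1.76 ± 0.26). Arfgap2 and Kazald1 were at 0 in all MAC-1+ samples, and Mc5r and Gm12976 had 1 count there in all. These 4 calls (adjusted p from 0.0752 to 0.087) were lost in 5 or 6 of the fits with 1 sample left out. Of the 70 genes that passed and that the naming rule selected, 38 kept the call in all 6 such fits, among them Plac8, Cd53, Ly6a, Pf4, Cd63, Mmrn1, Gp1bb, Atpif1, Cox8a and Ndufa12.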

How the data were processed

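RNA of HSCs was sequenced in 16 samples of 5 populations, and 6 of them, 3 of 4 week MAC-1+ and 3 of SS MAC-1-, form the comparison reported. Groups and replicate numbers came from the labels. One table of raw counts, as deposited, held the reads per gene and sample, which the authors had aligned with STAR in an nf-core workflow. What counted the reads, against which genome build and gene models, and whether by strand is not given in the sources used here, so that reads of overlapping and antisense genes cannot be told apart. SMART-Seq v4 copies whole transcripts without molecular identifiers, so that PCR copies are counted. 

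Differences were tested with edgeR 4.0.16 in R 4.3.3 (filterByExpr, TMM, robust quasi-likelihood test, 1 model with a mean per population over all 16 samples, Benjamini-Hochberg adjustment). A gene was called at an adjusted p under 0.1 and a log2 fold change past 1, and members of lists on the adjusted p alone. Values after ± are standard errors of the log2 fold change, and n is 3 per group. Of 46078 genes 13661 passed the filter, and 45143 were found in GENCODE M21 (GRCm38), which gave positions and transcript lengths, a match made here.

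The members of the comparison and the gene lists were chosen with earlier results of these data known, and the mitochondrial ribosomal list after its values had been seen. Genes were named as the 12 with the smallest p and the 5 with the largest change per direction, among called genes without overlap and with a mean of at least 50 scaled counts, then up to 6 called members per list, up to 4 uncalled members of the HSC, adhesion, megakaryocyte, myeloid, lymphoid and cell cycle lists, and genes the study names for its sequencing. Outside that rule, Slamf1 and Cd48 are named for the gate and Cycs as a family of 1 gene. Some genes that this rule names are not reported here. Symbols on several lines were taken from the line with the most counts, and Slamf2, Hbb-b1, Hbb-b2, Epb42, Ahsp and Gtl2 of the lists stand on no line. The chi-square of the counts between replicates was 176 to 291 per degree of freedom, so that no 2 libraries agreed within sampling noise. Replicate numbers were not taken to pair the samples, since the labels name nothing that same-numbered samples share, and their deviations from the group means had correlations across genes of -0.0138 to 0.0029 between these groups, 0.0177 to 0.0331 for 4 week MAC-1+ with the MAC-1- samples of that time, and -0.0204 to 0.0059 with SS MAC-1low. Alternatives were DESeq2 1.42.0, limma-voom with sample weights (limma 3.58.1), DESeq2 size factors, no filter and a stricter one (1 CPM in 3 samples and a mean of 20 counts), only the 2 groups, a replicate block, detected genes as a covariate, counts thinned to the smallest total, an adjusted p under 0.05, each of the 6 samples left out, and, chosen after seeing the data, an offset for transcript length and GC content.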

Additional observations from a re-analysis of the deposited data

How the results depend on the processing

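Of 2189 values of single named genes under the alternatives, 1881 kept their side of the threshold (or, without an adjusted p in DESeq2, their direction), 281 fell short of it, 27 newly passed and 0 reversed a call, whereas the number of calls depended on the test. Against 100 higher and 132 lower calls in the report, DESeq2 gave 728 and 453 (100 and 116 of the reported genes among them), limma-voom 60 and 106, the fit of only the 2 groups compared 8 and 10, and an adjusted p under 0.05 left 35 and 68. With the offset for transcript length and GC content, 73 and 83 were called, 61 and 69 of them shared with the report. The replicate block gave 53 and 85. Each 4 week MAC-1+ sample correlated best with its own number in 4 week MAC-1-, a hint from the data and not from the design. In that comparison 444 genes passed without the replicate block and 327 with it, and the 6 of them named in the report passed in both. Leaving out 1 sample gave 45 to 95 higher and 86 to 108 lower genes, the lowest numbers of higher genes being 45, 61 and 51 where a 4 week MAC-1+ sample (replicate 1, 2 or 3) was left out, and the lowest number of lower genes 86 without SS MAC-1- replicate 1. Genes with an interval within 1 of 0, 778 in the report, were 6050 with no filter, 458 with only the 2 groups and 791 to 866 with 1 sample left out. The correlation between the groups, 0.709 in the report, was 0.864 with no filter, 0.672 with the stricter filter and 0.730 to 0.739 with 1 sample left out, when other genes pass the filter. Lower megakaryocyte genes, 6 in the report, were 12 by DESeq2, 3 by limma-voom, 1 with only the 2 groups and 4 to 6 with 1 sample left out. Lower respiration genes, 32 in the report, were 21 with no filter, 1 with only the 2 groups, 12 with the offset, 21 at an adjusted p under 0.05 and 21 to 23 with 1 sample left out, the lowest without SS MAC-1- replicate 1. The causes were not tested. With 3 samples per group, few cells per library and a median interval of 2.54 to each side on the log2 scale, a gene without a call cannot be taken as equal in the 2 groups.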
